A study of Mus musculus with 4 samples.

Results

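In mouse hearts, 8 genes (Gpr22, Osbp, Pcdhga12, E130215H24Rik, Megf11, Stat6, Leng1 and Phox2a) had read counts that differed in the same direction in each of 2 cardiomyopathy models. These 8 members were chosen from their own ratios, dC10mut over NTG and tt over control, so those ratios are given as a description with no test. They are 8 of the 24847 gene symbols in the files, of which 9314 held a count, and 8 of the 26 genes that met one size rule alike in both pairs: 11 higher (0.159% of 6937 genes measured in both pairs) and 15 lower (0.216%). The rule asks for a ratio of at least 2-fold and a 95% counting interval that excludes equality, in each pair. Of the 8, 4 were higher and 4 were lower.

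RNA was sequenced in 4 libraries, 1 for each group, each from 3 combined hearts of mice 12 weeks old. For dC10mut the mice carried a transgene, cMyBP-CΔC10mut, with the 25-bp MYBPC3 variant, and are named an HCM (hypertrophic cardiomyopathy) model in the study's title. Its counterpart, NTG, was nontransgenic, and both have the strain label C57BL/6. For tt the genotype is given as cMyBP-C(t/t), the DCM (dilated cardiomyopathy) model of the title, and its counterpart is labelled control. Both are labelled FvB/N. Cardiac myosin binding protein C is a thick-filament protein of the sarcomere. The promoter that drives the transgene is not given in the sources used here. Because a group is 1 pooled library, no ratio below has a replicate check, and each interval covers counting error only. Counts were scaled by TMM, a method that sets libraries to a common scale, and levels are in CPM, counts relative to the scaled total of each library.

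The proteins behind these rows belong to unrelated systems. G protein-coupled receptors such as Gpr22 pass outside signals to G proteins, and Gpr22 itself is an orphan receptor known from brain and heart. Osbp moves cholesterol from the endoplasmic reticulum to the Golgi in exchange for a phosphoinositide, and it binds oxysterols. Clustered protocadherins are cell-surface recognition molecules best known from neurons, and Megf11 is a membrane protein with EGF-like repeats known from the spacing of retinal neurons in mice. Stat6 is the transcription factor activated by interleukins 4 and 13, and Phox2a is a homeobox factor of noradrenergic and other autonomic neurons. E130215H24Rik is annotated as a noncoding transcript.

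Depth was low, and 4 facts of the whole data set touch the values below. The library totals were 187365 counts in dC10mut, 170543 in NTG, 186420 in tt and 176633 in control, so that 1 count equals 5.19 to 6.24 CPM. Cardiomyocyte genes were partly present and partly at or near 0. Myl2, the ventricular myosin light chain, held 3520 counts in dC10mut, 2405 in NTG, 2453 in tt and 2556 in control, whereas Tnnt2 (cardiac troponin T) held 0 in all 4 and Myh6 (alpha myosin heavy chain) 0, 0, 1 and 0. Gapdh, a glycolytic enzyme found in every cell, held 0 in all 4 libraries. Mhrt, an antisense transcript of the cardiac myosin heavy chain genes, held 6620 counts in dC10mut, 1778 in NTG, 447 in tt and 698 in control. Myh7 (beta myosin heavy chain) held 11, 27, 20 and 20 in the same order. Of the 24058 symbols placed on the annotation, 24.3% have an exon that overlaps one on the other strand, and these held between 72.0% and 75.6% of the counts. Of the 100 genes with most counts, 82 have such an exon. The library kit keeps the strand of the RNA, but how the counting treated strand is not given in the sources used here. A row therefore cannot be assigned to the strand of the gene that names it. Member, pathway and marker rows are all given by name, and the strand their reads came from was not tested. With Gapdh at 0, a low or 0 row does not show that RNA of the named gene was scarce. Each gene with an exon opposite an exon of a member is named beside that member. Xist, transcribed from the inactive X chromosome of females, and its antisense Tsix together held 155 counts in dC10mut against 0 in NTG and 173 in tt against 0 in control. Most of these were in the Tsix row, 147 in dC10mut and 159 in tt, while the Xist row held 8 and 14. The 4 Y-linked genes Ddx3y, Eif2s3y, Kdm5d and Uty held 0 against 1 and 0 against 15. Sex of the pooled mice and genotype thus cannot be told apart in either pair.

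The promoters of the rows that moved together were examined first. RefSeq (GRCm38.p6) gives a window of 250 bases before to 50 bases after the start for 6 of the 8 genes; Pcdhga12 and Megf11 have none in the table used. Both strands were searched for the TATA box (letters TATAAA), the CCAAT box (CCAAT), the GC box (GGGCGG), the E-box CACGTG, the palindrome of the STAT6 type (TTC, any 4 bases, GAA) and the MEF2-type motif (CTA, any 4 bases, TAG). The 4 windows that held any match are shown 5′ to 3′ with the matches in capitals, at chr12:31713834-31714133 (minus strand), chr19:11965594-11965893 (plus), chr7:3665791-3666090 (minus) and chr7:101818063-101818362 (plus), to set 2 rows that were higher beside 2 that were lower.
Gpr22: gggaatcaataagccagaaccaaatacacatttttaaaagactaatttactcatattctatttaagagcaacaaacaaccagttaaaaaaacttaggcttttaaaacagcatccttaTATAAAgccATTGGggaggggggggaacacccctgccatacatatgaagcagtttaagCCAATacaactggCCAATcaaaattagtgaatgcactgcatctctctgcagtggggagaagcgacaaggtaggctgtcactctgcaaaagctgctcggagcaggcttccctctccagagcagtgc
Osbp: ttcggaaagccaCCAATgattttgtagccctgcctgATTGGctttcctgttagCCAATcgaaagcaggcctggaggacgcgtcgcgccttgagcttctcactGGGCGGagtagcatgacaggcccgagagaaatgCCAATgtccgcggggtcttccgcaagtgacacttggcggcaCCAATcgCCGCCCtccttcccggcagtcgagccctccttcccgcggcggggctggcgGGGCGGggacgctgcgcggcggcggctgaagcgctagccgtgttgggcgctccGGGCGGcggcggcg
Leng1: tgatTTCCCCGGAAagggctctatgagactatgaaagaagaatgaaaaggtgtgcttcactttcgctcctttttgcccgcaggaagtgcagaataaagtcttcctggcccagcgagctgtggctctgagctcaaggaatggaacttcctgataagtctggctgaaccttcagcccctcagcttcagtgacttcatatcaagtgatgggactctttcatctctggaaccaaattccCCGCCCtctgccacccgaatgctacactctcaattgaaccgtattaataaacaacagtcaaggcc
Phox2a: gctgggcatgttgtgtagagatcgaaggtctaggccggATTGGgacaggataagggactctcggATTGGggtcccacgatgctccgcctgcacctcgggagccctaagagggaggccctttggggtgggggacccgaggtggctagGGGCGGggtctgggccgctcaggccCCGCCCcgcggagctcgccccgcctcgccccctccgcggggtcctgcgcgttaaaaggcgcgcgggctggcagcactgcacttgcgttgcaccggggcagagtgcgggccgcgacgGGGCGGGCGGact
The windows had little in common. Gpr22 held 1 TATA box, which 13.6% of the 32851 windows in the table hold, and 3 CCAAT boxes. Osbp held 5 CCAAT boxes and 4 GC boxes, and Phox2a 2 CCAAT boxes and 4 GC boxes, 1 of which overlaps another. Leng1 held 1 GC box and 1 STAT6-type palindrome. The CCAAT box was thus found in 3 of the 6 windows against 37.4% of all windows, the GC box in 3 of 6 against 35.7%, and the STAT6-type palindrome in 1 of 6 against 6.95%. The E-box (7.15% of all windows) and the MEF2-type motif (3.69%) were in none of the 6, and E130215H24Rik and Stat6 held no match at all. CpG content split the rows too: 34 CG dinucleotides in Osbp and 30 in Phox2a, 7 or 8 in E130215H24Rik, Stat6 and Leng1, and 2 in Gpr22, with a median of 7 over the table. A match is a run of letters and does not show that a factor binds there.

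Among the rows higher in both mutant libraries, the receptor Gpr22 (chromosome 12, 31706867 to 31713947, minus strand, GRCm38, 3 exons) held 21 counts in dC10mut against 5 in NTG, and 21 in tt against 8 in control. In CPM these are 112 against 31.2 and 109 against 44.0. Both mutant libraries lay at the same level, above both of the others. The log2 ratio was 1.76 (95% interval 0.40 to 3.61) for dC10mut over NTG and 1.26 (0.08 to 2.69) for tt over control. In this and every other row, the number of cells of a type, RNA per cell, sex of the pools and the strand of the reads cannot be told apart. The gene lies within the span of Cog5, a subunit of a Golgi tethering complex on the plus strand, with no exon overlap. The Cog5 row held 82 counts in dC10mut against 94 in NTG (log2 ratio -0.42, -0.87 to 0.02), and 147 in tt against 60 in control (1.20, 0.77 to 1.67).

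Osbp (chromosome 19, 11965941 to 11994112, plus strand, 14 exons) held 18 counts in dC10mut against 3 in NTG, and 16 in tt against 3 in control. It had the fewest counts of the 8 genes, 40 in all, and no annotated gene on the other strand within 5000 bases. The mutant libraries were again alike, 96.1 CPM in dC10mut and 83.1 CPM in tt, against 18.7 CPM in NTG and 16.5 CPM in control. The log2 ratios were 2.20 (0.59 to 4.77) for dC10mut over NTG and 2.16 (0.53 to 4.75) for tt over control. A level of 3 counts is the floor that a count of 0 would allow, so both denominators are barely measured.

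E130215H24Rik (chromosome 2, 150667494 to 150668935, plus strand, 2 exons) had the most counts of the 8, 278 in all, with 89 counts in dC10mut against 37 in NTG, and 122 in tt against 30 in control. The levels were 475 CPM in dC10mut, 231 CPM in NTG, 633 CPM in tt and 165 CPM in control, and the counting intervals of mutant and other libraries did not overlap. Its log2 ratio was 1.03 (0.47 to 1.64) for dC10mut over NTG and 1.92 (1.36 to 2.57) for tt over control. The ratio was thus larger in the tt pair, by 0.89 on the log2 scale (0.10 to 1.68, counting error only). The row shares 113 bases, 12.0% of its exons, with the opposite-strand gene Acss1, a mitochondrial enzyme that makes acetyl-CoA from acetate. The Acss1 row held 35 counts in dC10mut against 29 in NTG (log2 ratio 0.05, -0.70 to 0.81), and 54 in tt against 30 in control (0.76, 0.10 to 1.46).

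Pcdhga12 (chromosome 18, 37765580 to 37841873, plus strand, 4 exons) varied most among the libraries. It held 33 counts in dC10mut against 12 in NTG, and 56 in tt against 4 in control. The 4 levels, 176 CPM in dC10mut, 74.8 CPM in NTG, 291 CPM in tt and 22.0 CPM in control, stood apart from each other: tt was above dC10mut, dC10mut above NTG and NTG above control, each by an interval that excludes equality. The log2 ratio was 1.20 (0.25 to 2.32) for dC10mut over NTG and 3.57 (2.29 to 5.65) for tt over control, a difference of 2.37 (0.70 to 4.04). On the other strand, Gm26672 shares 422 bases with it, 8.3% of its exons, and has no row in the files used. BC037039 and Gm29994, annotated as antisense, lie within its span and have no row there either, and Diaph1, 1728 bases away, held 0 counts in all 4 libraries. Pcdhga12 was the 1 member past the size rule between the control and NTG libraries, at -1.64 (-3.86 to -0.04) for control over NTG, where 1.4% of 8152 genes were higher and 1.69% lower.

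**Figure D1:**
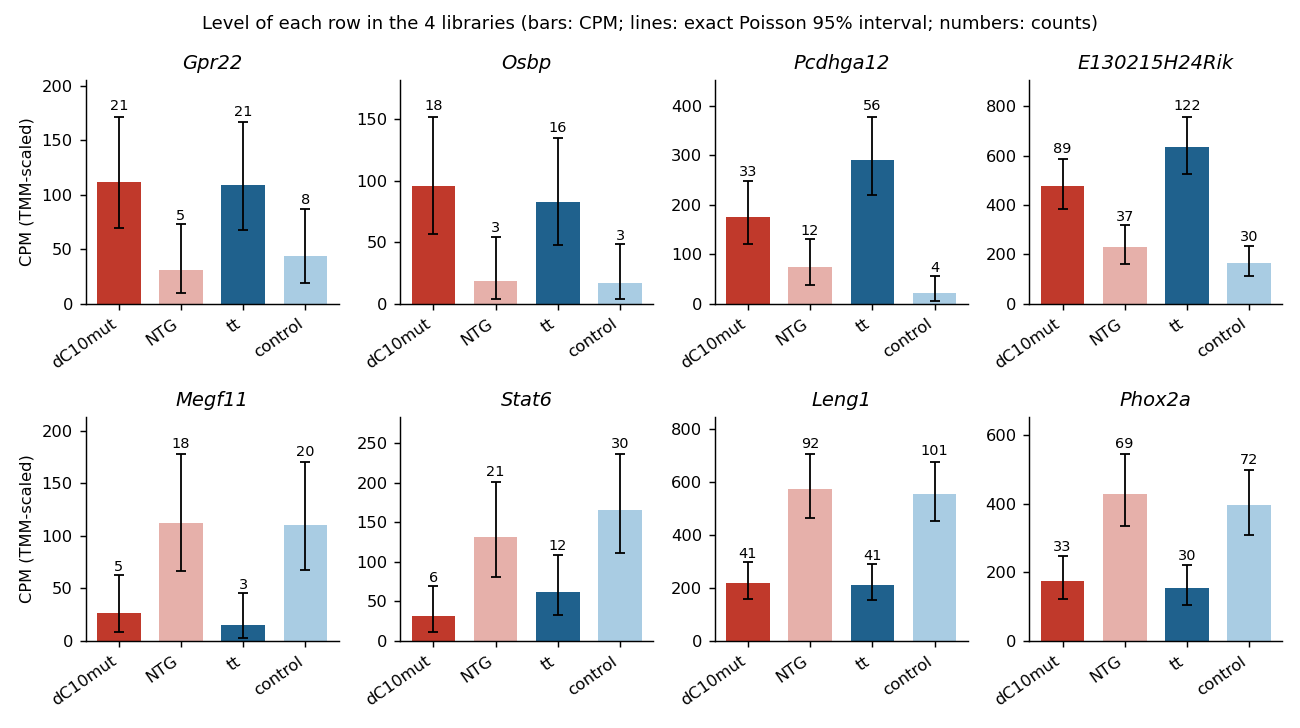
Bars give the level of each of the 8 rows in CPM in the libraries dC10mut, NTG, tt and control, lines the exact Poisson 95% interval, and the numbers the read counts. The libraries dC10mut and tt stand above NTG and control in 4 rows and under them in the other 4, with Pcdhga12 highest in tt (56 counts) and lowest in control (4 counts).

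The gamma protocadherins share their last exons, so the other rows of the cluster were set beside Pcdhga12. Pcdhga12 has 2119 exon bases, 41.7% of its exons, in common with Pcdhga11, Pcdhgb7, Pcdhgc3 and others. Of 57 clustered protocadherin symbols, 20 held a count, and 3 besides Pcdhga12 held at least 10 counts in a pair in all. Pcdhgb7 held 32 counts in dC10mut against 30 in NTG (log2 ratio -0.13, -0.90 to 0.64), and 49 in tt against 14 in control (1.69, 0.84 to 2.70). Pcdhga11 held 20 in dC10mut against 20 in NTG, and 29 in tt against 17 in control (0.67, -0.22 to 1.64). Pcdhgc3, which starts beyond Pcdhga12 in the cluster, held 5 in dC10mut against 7 in NTG and 6 in tt against 6 in control. Over the 56 symbols without Pcdhga12, 0 of 14 measured rows were past the rule for dC10mut over NTG. For tt over control 2 of 15 were, Pcdhgb7 and Pcdhga10 (8 counts in tt against 1 in control), both higher. Over all genes measured, 1.81% were higher and 2.53% lower for dC10mut over NTG, and 2.7% and 1.58% for tt over control. The summed level of the 56 rows was 352 CPM in dC10mut against 418 CPM in NTG, and 540.0 CPM in tt against 236 CPM in control. Pcdhga12 was therefore the 1 row of the cluster past the rule in both pairs, and how reads in the shared exons were assigned is not given in the sources used here.

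**Figure D2:**
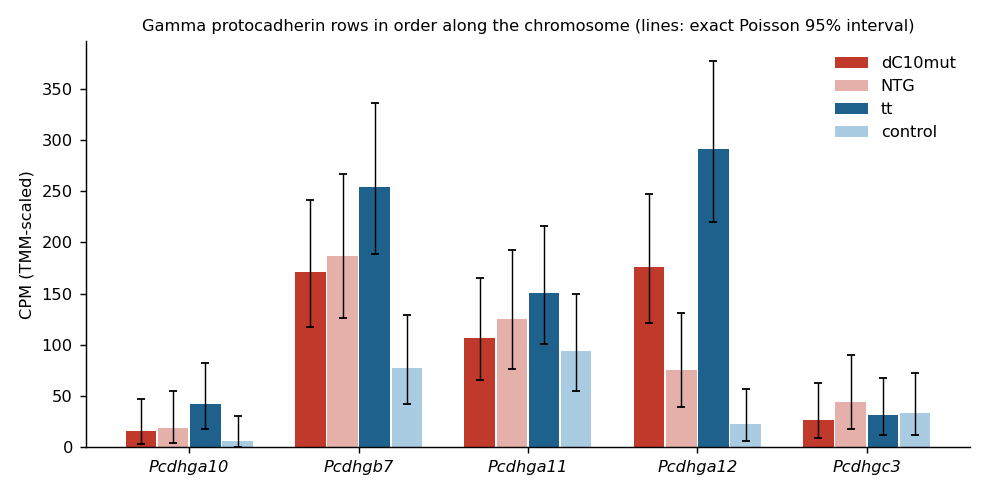
Bars give the level in CPM of 5 gamma protocadherin rows, ordered along the chromosome, in dC10mut, NTG, tt and control, and lines the exact Poisson 95% interval. The tt library is above control for Pcdhgb7 (49 and 14 counts) and Pcdhga12 (56 and 4), whereas dC10mut is above NTG by more than counting error in Pcdhga12 alone of those shown.

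Among the rows lower in both mutant libraries, Megf11 (chromosome 9, 64385626 to 64709205, plus strand, 25 exons) held 5 counts in dC10mut against 18 in NTG, and 3 in tt against 20 in control. All counts were on 1 of its 2 RefSeq transcripts in the files, and the other held 0 in the 4 libraries. The levels were 26.7 CPM in dC10mut and 15.6 CPM in tt, against 112 CPM in NTG and 110.0 CPM in control, which did not differ beyond counting error. The log2 ratios were -1.96 (-3.86 to -0.59) for dC10mut over NTG and -2.63 (-5.21 to -1.07) for tt over control. No annotated gene lies on the other strand within 5000 bases of it.

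Stat6 (chromosome 10, 127642986 to 127660957, plus strand, 22 exons) held 6 counts in dC10mut against 21 in NTG, and 12 in tt against 30 in control. The levels were 32.0 CPM in dC10mut against 131 CPM in NTG, and 62.3 CPM in tt against 165 CPM in control. The order ran control, NTG, tt, dC10mut, and no 2 neighbours in it differed beyond counting error. Its log2 ratio was -1.94 (-3.63 to -0.67) for dC10mut over NTG and -1.37 (-2.51 to -0.40) for tt over control. At its end the gene shares 40 bases, 1.1% of its exons, with Nab2 on the other strand, a corepressor of the EGR transcription factors. The Nab2 row held 0 counts in dC10mut against 1 in NTG, and 0 in both tt and control.

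Leng1 (leukocyte receptor cluster member 1; chromosome 7, 3660098 to 3665840, minus strand, 4 exons) held 41 counts in dC10mut against 92 in NTG, and 41 in tt against 101 in control. Phox2a (chromosome 7, 101818313 to 101822726, plus strand, 3 exons) held 33 counts in dC10mut against 69 in NTG, and 30 in tt against 72 in control. In both rows the 2 mutant libraries matched each other and the other 2 did as well. Leng1 stood at 219 CPM in dC10mut and 213 CPM in tt against 574 CPM in NTG and 555 CPM in control. Phox2a stood at 176 CPM in dC10mut and 156 CPM in tt against 430.2 CPM in NTG and 396 CPM in control. The log2 ratios of Leng1 were -1.38 (-1.96 to -0.84) for dC10mut over NTG and -1.37 (-1.94 to -0.85) for tt over control, those of Phox2a -1.27 (-1.93 to -0.67) and -1.33 (-2.01 to -0.71). These were the narrowest intervals among the lower rows.

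Both rows overlap a gene on the other strand. Leng1 shares 433 bases, 19.5% of its exons, with Cnot3, a subunit of the CCR4-NOT complex that shortens poly(A) tails. Also on that strand lie the antisense Gm15929, 412 bases away with no row in the files used, and Mir3572, 4051 bases away with 0 counts in all 4 libraries. The Cnot3 row held 29 counts in dC10mut against 42 in NTG (log2 ratio -0.75, -1.49 to -0.04), and 37 in tt against 33 in control (0.08, -0.63 to 0.81). Phox2a shares 95 bases, 5.9% of its exons, with Inppl1, which encodes the lipid phosphatase SHIP2. The Inppl1 row held 37 counts in dC10mut against 21 in NTG, and 3 in tt against 1 in control. It thus split the libraries by strain label rather than by mutation, with control over NTG at -3.99 (-9.94 to -1.94), whereas Phox2a differed little between NTG and control (-0.12, -0.62 to 0.38). Of the 4 opposite-strand rows that share exon bases with a member, 0 were past the size rule in either pair, though Nab2 held at most 1 count. For 4 rows this is near the share of all genes: 1.81% higher and 2.53% lower for dC10mut over NTG, 2.7% and 1.58% for tt over control. Below 2-fold, Cnot3 for dC10mut over NTG and Acss1 for tt over control (0.76, 0.10 to 1.46) differed beyond counting error, in their member's direction. Cog5, which spans Gpr22 without exon overlap, is not among the 4. By the values given above it met the rule for tt over control.

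**Figure D3:**
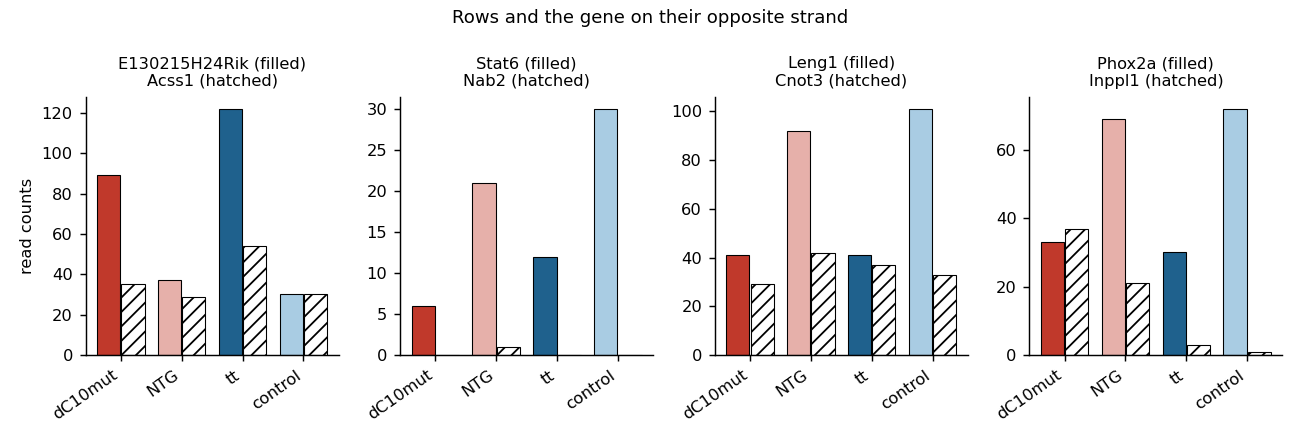
Filled bars give the read counts of 4 of the rows and hatched bars those of the gene on the opposite strand, in dC10mut, NTG, tt and control. The hatched bars follow the filled ones in part: Acss1 is higher in tt than in control (54 and 30 counts) and Cnot3 lower in dC10mut than in NTG (29 and 42), while Inppl1 has 37 and 21 counts in dC10mut and NTG and 3 and 1 in tt and control.

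When the counts of each row and its opposite-strand gene were added together, 3 ratios were under 2-fold. They were E130215H24Rik with Acss1 for dC10mut over NTG (0.68, 0.24 to 1.14), Phox2a with Inppl1 in the same pair (-0.58, -1.06 to -0.12) and Leng1 with Cnot3 for tt over control (-0.86, -1.28 to -0.45). In all 3 the interval still excluded equality. Each sum holds the member's own counts, on which the members were chosen, so the sums are a description and no check of the ratios. Of the 24 genes alike in both pairs that could be placed on the annotation, 66.7% had an opposite-strand exon, against 38.3% of genes measured in both pairs and 55.1% of those with at least 40 counts in all, the lowest total among the 8. Among the 8 genes described, 5 had one.

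All 8 were past the rule in both pairs by their choice. For scale, 1.81% of the 8033 genes measured for dC10mut over NTG were higher and 2.53% lower, and 2.7% of the 8248 for tt over control were higher and 1.58% lower. Just inside the rule among the 8 lay E130215H24Rik, whose smaller log2 ratio was 1.03, followed by Pcdhga12 at 1.20. Just outside it lay Fbxl2, at -1.82 for dC10mut over NTG and -0.99 for tt over control, Dync1h1 at -0.96 and -1.03, and BC037032 at 0.94 and 1.32. The other 18 genes alike in both pairs were, on the higher side, Tsix, Xist, D630041G03Rik, 4932441J04Rik, Mir7674, A630019I02Rik and Sgcb, and on the lower side Slc7a11, Mki67, Rbm4b, Rgp1, Srrm4os, Pdk4, Gm29679, Cox20, Srsf6, Tmem150cos and Gm13262. In 14 genes the rule was met in opposite directions in the 2 pairs.

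**Figure D4:**
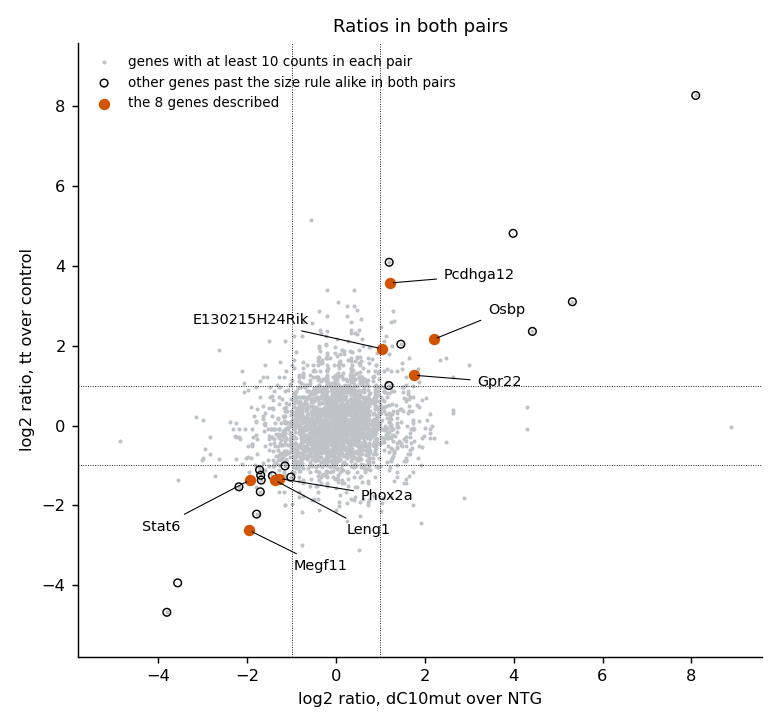
Each point is a gene, with its log2 ratio of dC10mut over NTG on the x axis and of tt over control on the y axis; grey points are the 2575 genes with at least 10 counts in each pair, open circles the other 18 genes past the size rule alike in both pairs, and dotted lines mark 2-fold. The 8 genes described lie at the edge of the cloud in the upper right and lower left, among the open circles.

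The members differed in how alike the pairs were. The ratios in both pairs lay within 0.1 of each other on the log2 scale for Osbp (difference tt pair minus dC10mut pair -0.04, -2.38 to 2.31), Leng1 (0.01, -0.74 to 0.75) and Phox2a (-0.06, -0.91 to 0.80). The intervals of Gpr22 (-0.50, -2.27 to 1.27), Megf11 (-0.67, -2.80 to 1.47) and Stat6 (0.57, -1.01 to 2.15) also included 0 and were wide. Pcdhga12 and E130215H24Rik had larger ratios in the tt pair, as given above. Between the control and NTG libraries, which the choice of members did not set against each other, 7 of the 8 were within the size rule. They ran from Megf11 at -0.03 (-1.02 to 0.97) and Leng1 at -0.05 (-0.47 to 0.38) to E130215H24Rik at -0.48 (-1.23 to 0.25) and Gpr22 at 0.46 (-1.30 to 2.45). This comparison shares its libraries with the pair ratios and is no separate evidence on them.

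**Figure D5:**
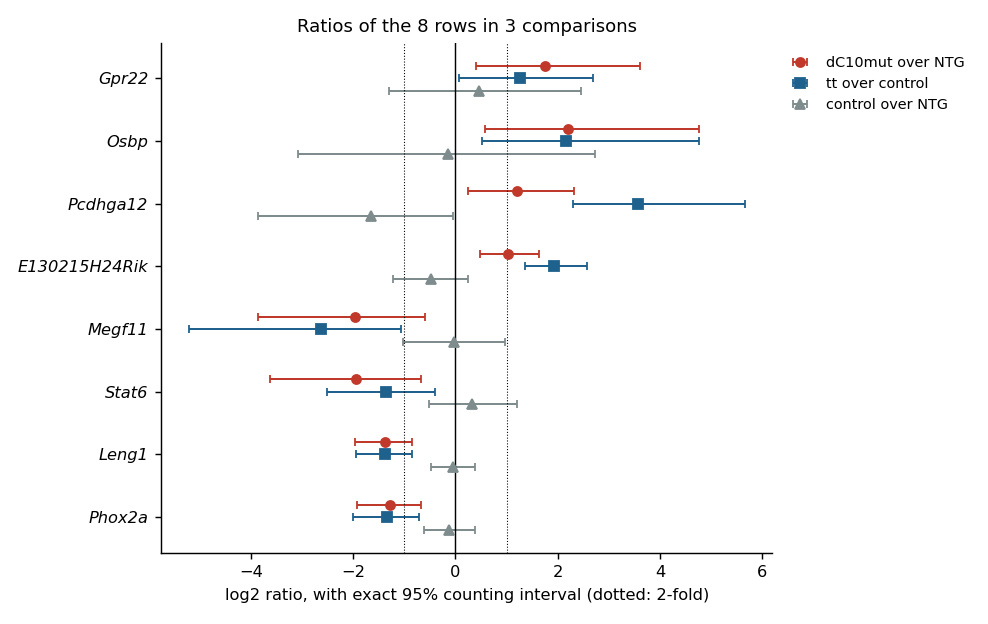
Points give the log2 ratio of each row for dC10mut over NTG, tt over control and control over NTG, lines the exact 95% counting interval, and dotted lines 2-fold. The first 2 ratios lie on the same side of 0 in all 8 rows by choice, while control over NTG spans 0 in all but Pcdhga12 (-1.64).

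Scaled to exon length, the rows covered a wide range of levels. Averaged over the 4 libraries, E130215H24Rik stood at 400.5 CPM per kb of exon, Phox2a at 179.9 and Leng1 at 176. Well under them were Pcdhga12 at 27.8 CPM per kb, Stat6 at 25.8, Gpr22 at 16.2, Osbp at 11.9 and Megf11 at 10.99. The 3 rows with the highest level per length each overlap an exon of a protein-coding gene on the other strand. Stat6, among the lower rows, does so too, by 40 bases with Nab2.

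The pathways around each gene were then counted, with the member itself left out. Over all genes measured, the rule took 1.81% as higher and 2.53% as lower for dC10mut over NTG. For tt over control it took 2.7% and 1.58%. In lists this short, 0 past the rule is near those shares and says little about a list. Around Stat6, 12 of 29 genes of interleukin 4 and 13 signalling were measured in each pair. For dC10mut over NTG 1 was higher, Ptpn1 (a tyrosine phosphatase, 6 counts against 0), and 1 lower, the transcription factor Klf4 (5 against 13), and for tt over control none was past the rule. Jak1, the kinase at these receptors, held 33 counts in dC10mut against 31 in NTG and 59 in tt against 48 in control. Irs1, an adaptor of the receptor, held 12 against 6 and 15 against 8, and the receptor chain Il13ra1 held 9 against 14 and 8 against 3. Of the other STAT genes, Stat2 held 2 counts in dC10mut against 5 in NTG and 3 in tt against 6 in control, Stat5b held 0 or 1, and the other 4 held 0. Macrophage markers, which mark cells that use this pathway, went opposite ways: their summed level was 256 CPM in dC10mut against 112 CPM in NTG, but 93.5 CPM in tt against 253 CPM in control, with 6 of 8 detected. Most of this was Lyz2, the lysozyme of macrophages, with 28 counts in dC10mut against 6 in NTG and 5 in tt against 28 in control, and each of the other markers held at most 6 counts in a library. The part of macrophages in the Stat6 counts was not tested.

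Around Osbp, 6 of the 19 related lipid-transfer proteins and partners with a row in the files were measured. Osbpl2, of the same family, was past the rule for dC10mut over NTG (12 counts against 2; 2.13, 0.19 to 5.56) and not for tt over control (13 against 10; 0.28, -1.01 to 1.65). Pi4ka, a kinase that makes the phosphoinositide which such proteins exchange, held 16 counts in dC10mut against 17 in NTG and 28 in tt against 15 in control. Vapb, the membrane anchor of Osbp, held 17 against 11 and 21 against 13. Genes of cholesterol synthesis and uptake had a median log2 ratio of -0.85 over 18 measured genes for dC10mut over NTG and -0.64 over 19 for tt over control. The median of all genes measured was -0.12 and -0.05 in these comparisons. Few of the genes were well counted, and with at least 10 counts in the pair the medians were -0.80 over 3 genes and -0.55 over 4. Sqle, the squalene epoxidase, was past the rule for dC10mut over NTG (11 counts against 26; -1.42, -2.63 to -0.40) and held 25 in tt against 37 in control (-0.64, -1.44 to 0.12). Cyp27a1, a sterol hydroxylase, was past it for tt over control (0 counts against 10). Npc1, the lysosomal cholesterol exporter, held 65 in dC10mut against 97 in NTG and 97 in tt against 109 in control. Npc2, its partner in that export, held 19 in dC10mut against 8 in NTG (0.98, -0.23 to 2.43) and 6 in tt against 8 in control (-0.46, -2.30 to 1.22).

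Around Gpr22, 17 of 29 other cardiac receptors were measured in each pair and 0 were past the rule in either. Only 4 of them held at least 10 counts over the dC10mut pair and 7 over the tt pair. The most counted was Ptger1, a prostaglandin receptor, with 448 counts in dC10mut against 478 in NTG and 437 in tt against 431 in control. Chrm2, the muscarinic receptor of the heart, held 10 against 9 and 11 against 13, and S1pr1, a sphingosine phosphate receptor, 8 against 6 and 7 against 8. Of G proteins, adenylyl cyclases and their regulators, 14 were measured for dC10mut over NTG with 0 past the rule. For tt over control 17 were measured and 1 was higher, Prkar2a, a regulatory subunit of protein kinase A (23 counts against 6). The most counted was Rgs5, which shortens G protein signals and also marks pericytes, with 120 counts in dC10mut against 65 in NTG (0.66, 0.21 to 1.12) and 86 in tt against 95 in control (-0.23, -0.66 to 0.21). Gnai2, an inhibitory G protein subunit, held 43 against 31 and 37 against 36. Adcy5, a main adenylyl cyclase of heart muscle, held 14 against 10 and 19 against 8.

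Around Phox2a, few genes of the autonomic neuron programme held counts. Of 24, 5 were measured for dC10mut over NTG and 6 for tt over control, and 0 were past the rule. In each pair 2 of them held at least 10 counts. Th, the first enzyme of noradrenaline synthesis, held 0 counts in all 4 libraries. By counting error alone, 0 counts allow up to 15.6 to 18.7 CPM. Gapdh also held 0 in all 4, so the 0 does not show that Th RNA was absent. Dbh, which makes noradrenaline, held 1 count in dC10mut against 2 in NTG and 2 in tt against 0 in control, and was the only 1 of 10 neuron and Schwann cell markers with a count. Slc18a2, a vesicular monoamine transporter, held 58 counts in dC10mut against 56 in NTG and 56 in tt against 85 in control, and Hand2, also a heart factor, 26 against 23 and 20 against 28. Stmn2, a neuronal microtubule regulator, held 3 against 1 and 4 against 5.

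Around Megf11, 12 of 20 genes of its family and of engulfment were measured in each pair and 0 were past the rule. In each pair 3 of these 12 held at least 10 counts. Its relatives Megf6 and Megf9 held at most 2 counts in a library. Stab1, a scavenger receptor, held 55 counts in dC10mut against 43 in NTG and 48 in tt against 73 in control, the ligand Gas6 20 against 22 and 20 against 15, and the receptor Lrp1 7 against 6 and 5 against 6. Around Leng1, 8 of 18 CCR4-NOT subunits and neighbouring genes were measured for dC10mut over NTG and 10 for tt over control, with 0 past the rule. Of these, 1 held at least 10 counts over the dC10mut pair and 2 over the tt pair. Leng8, named from the same cluster, held 5 counts in dC10mut against 4 in NTG and 15 in tt against 19 in control, and the subunit Cnot10 2 against 5 and 4 against 4.

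Among other cell types, cardiomyocyte and endothelial markers are given because they bear on the tissue as a whole. The ventricular cardiomyocyte list, 9 or 10 of 12 detected, summed to 37830 CPM in dC10mut against 30740 CPM in NTG, and to 27930 CPM in tt against 30850 CPM in control. Myl2 held the most counts, and Pln, Atp2a2, Mb and Myh6 at most 3 in a library. Of 6 genes with at least 10 counts, 4 had a ratio above 0 for dC10mut over NTG and 2 for tt over control. Mybpc3 (-0.13 and 0.55) and Ryr2 (-0.06 and 0.43) went against the sum in both pairs. Endothelial markers summed to 1271 CPM in dC10mut against 1440 CPM in NTG, and to 732 CPM in tt against 1528 CPM in control, with 5 of 8 detected and Pecam1, Egfl7 and Emcn at 0. None of the 5 was past the rule for dC10mut over NTG, where Fabp4, the most counted, held 184 counts against 154 (0.03, -0.28 to 0.35). Fabp4 was the 1 marker with a ratio above 0 in this pair, and the median log2 ratio of the 5 was -0.563. Cdh5 held 24 counts against 39 (-0.91, -1.72 to -0.15). The median for tt over control was -1.04, with 0 of the 5 above 0. For tt over control 2 were lower, Fabp4 (102 against 203) and Kdr (11 against 27). The part of these cells in the lower rows was not tested. Erythroid and adipocyte markers, 5 each, held 0 counts in all 4 libraries.

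In a model over all 4 libraries with the pair as a block, edgeR's quasi-likelihood test called 13 of 7360 genes at an adjusted p under 0.05, 8 higher (0.109%) and 5 lower (0.0679%) in the mutant libraries. The calls include the sex-linked rows Tsix, Xist and Ddx3y, and some of the 8 members, which the same ratios chose. Another, Rps18-ps4, held 1 count in NTG against 814 in dC10mut, 665 in tt and 641 in control. These counts of calls are thus no measure of a mutation effect shared by the models. The 8 genes were chosen on the ratios of the same libraries, so no p of theirs is given. Of the 99 other pathway genes that entered the model, edgeR called 0, with 3 at an unadjusted p under 0.05 against 320 of all 7360. DESeq2 called 0 of the 99, with 0 at an unadjusted p under 0.05. DESeq2 called 0 of all genes, with 43 at an unadjusted p under 0.05.

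Likeness of pattern was measured as the distance over 3 log2 ratios (dC10mut over NTG, tt over control, control over NTG) among 1797 genes with at least 40 counts. Leng1 and Phox2a were each other's nearest gene, at a distance of 0.133, and Gm29679 came next for both (0.151 and 0.236). The genes nearest to Stat6 were Pdk4, the kinase that inhibits pyruvate dehydrogenase (0.257), and Cox20, which helps build cytochrome oxidase (0.289). Mlec (0.416) and Naa15 (0.432) were nearest to Gpr22, Mir7674 (0.805) and Naa15 (1.06) to Osbp, and Mir7674 (0.442) and Kif13a (0.447) to E130215H24Rik. Those nearest to Pcdhga12 were A630019I02Rik (0.618) and Tor1aip2 (1.13), and those nearest to Megf11 were Rgp1 (0.998) and Prickle3 (1.18). These distances rest on the same 4 libraries and on few counts, and are a description only.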

How the data were processed

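Per the labels' protocols, total RNA of combined hearts was poly(A)-selected and made into libraries with a kit that keeps strand. Per the submitters' processing notes, STAR, HTSeq and the build mm10 were used; no source used here gives versions, counting mode or strand setting. The authors deposited raw counts, whole numbers for each of 41449 RefSeq transcripts with no summary lines, from 1 library a group.

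Of the transcripts, 41252 matched a symbol in a RefSeq table (GRCm38.p6); 197 did not and kept their identifier. Counts were summed per symbol. Positions and exons came from GENCODE M21 (GRCm38). Scaling used TMM (edgeR 4.0.16, R 4.3.3; factors 0.940 to 1.03). Log2 ratios used a prior count of 0.5, and their 95% intervals are exact Clopper-Pearson conditional binomial ones; differences between pairs used a normal approximation on counts plus 0.5. These cover counting error only, since PCR copies are not independent molecules. The size rule needs a 2-fold ratio, an interval without equality and 1 CPM in a library of the pair, which any count meets; 0 counts allow up to 3. Where a joint model was fitted, edgeR's quasi-likelihood test and DESeq2 1.42.0 with Benjamini-Hochberg adjustment were used, on genes at 1 CPM in at least 2 libraries. The ratio rule and the joint model were tested on simulated data. Members and gene lists were chosen with earlier results of these data known. Named genes were the 8 members, their opposite-strand genes, the 3 most counted genes of each pathway list, the 2 genes nearest in pattern, and genes alike in both pairs; Cog5, list genes past the rule in 1 pair, Th, Megf6, Megf9 and a few other list genes were named after their values were seen.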

Additional observations from a re-analysis of the deposited data

How the results depend on the processing

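All 8 members stayed past the size rule in both pairs with library totals, DESeq2 size factors, a prior count of 2, a minimum of 10 counts over the pair, or the most counted transcript in place of the sum. With 99% intervals 6 did, and Gpr22 and Pcdhga12 did not. With the opposite-strand gene's counts added, the Phox2a ratio for dC10mut over NTG moved to -0.58, outside its interval. Genes alike and higher in both pairs numbered 6 with 99% intervals, against 11. Over all genes, these intervals left 59 higher and 110 lower for dC10mut over NTG, 115 and 60 for tt over control, and 27 and 62 for control over NTG; library totals left 84 lower in the last. The joint model's 8 higher and 5 lower calls became 0 and 0 with DESeq2 and 1 and 0 without the pair block. Lower calls numbered 1 with library totals, 3 with no filter beyond 1 count in any library and 10 with at least 10 counts over the 4 libraries. No fit paired by replicate number could be made, as each group holds 1 library; the pair block of the joint model joins a mutant library to its own counterpart. At this depth, rows such as Osbp rest on 3 counts in a library. No library could be left out, since each is the only one of its group.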
